A study of Mus musculus with 6 samples.

Results

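The S100 genes encode small calcium-binding proteins with paired EF-hand loops. Values are given here for 10 of them, S100a1, S100a6, S100a8, S100a9, S100a10, S100a11, S100a13, S100a14, S100a16 and S100g, out of 23725 genes in the deposited table. They were taken by gene symbol after the Entrez numbers of the table had been matched to symbols. RNA came from colonic epithelial cells enriched on a Percoll gradient, in 3 knockout and 3 wild-type libraries, all from mice on the C57BL/6J background. The knockout group is labelled B6-Cg-Nr3c1-Vil-Cre/ERT2 (Nr3c1IEC-/-), in which Cre driven by the villin promoter and switched on by tamoxifen deletes the glucocorticoid receptor gene Nr3c1 in intestinal epithelium. The other group is labelled wild type. Per the protocol that the labels give for both groups, mice received daily tamoxifen into the peritoneum for 5 days and the cells were taken on day 7. Presence of the Cre in the wild type and the age of the mice are not stated in the labels, so an effect of the Cre itself cannot be told apart from the loss of the receptor. Nor is it stated that each library came from its own animal, so p-values measure the spread between these libraries, which may be technical. The comparison asks how S100 transcripts differ between colonic epithelium with and without this receptor.

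Most S100 proteins form dimers that change shape when calcium binds and then attach to target proteins, among them annexins, which bind membranes. S100A8 and S100A9 pair as calprotectin, a metal-binding antimicrobial protein that is abundant in neutrophils and monocytes and can also be made by epithelia, and whose level in human stool is used as a measure of gut inflammation. S100G, also called calbindin-D9k, carries calcium through the cytoplasm of absorptive cells and is a known target of the vitamin D receptor. In the mouse most S100 genes lie together on chromosome 3.

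Of the 10 genes, 6 rose in knockout cells: S100a8, S100a9, S100a11, S100a14, S100a16 and S100a10. The rises of S100a8 and S100a9 were the largest, and S100a6, S100a13, S100a1 and S100g did not pass the test. All 10 genes passed the filter on low values, which asked for 3 or more libraries at 10 or above. Among all 12837 genes tested, 15% were called raised and 30.5% were called in either direction. The median log2 change of the 10 S100 genes was 1.23, against 0.01 over all genes tested. In 6 of the 10 the groups did not overlap, which was so for 50.7% of all genes tested. In all 6 every knockout library lay above every wild-type library, the case for 25.2% of all genes tested. Values are normalized reads, which are gene counts divided by 1 size factor per library. The test was limma on log2(value + 1), two-sided, with Benjamini-Hochberg adjustment over all genes tested and a threshold of 0.05. A log2 change is knockout minus wild type on that scale, which understates the change of low genes, and each adjusted p is from this fit unless edgeR or DESeq2 is named.

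**Figure D1:**
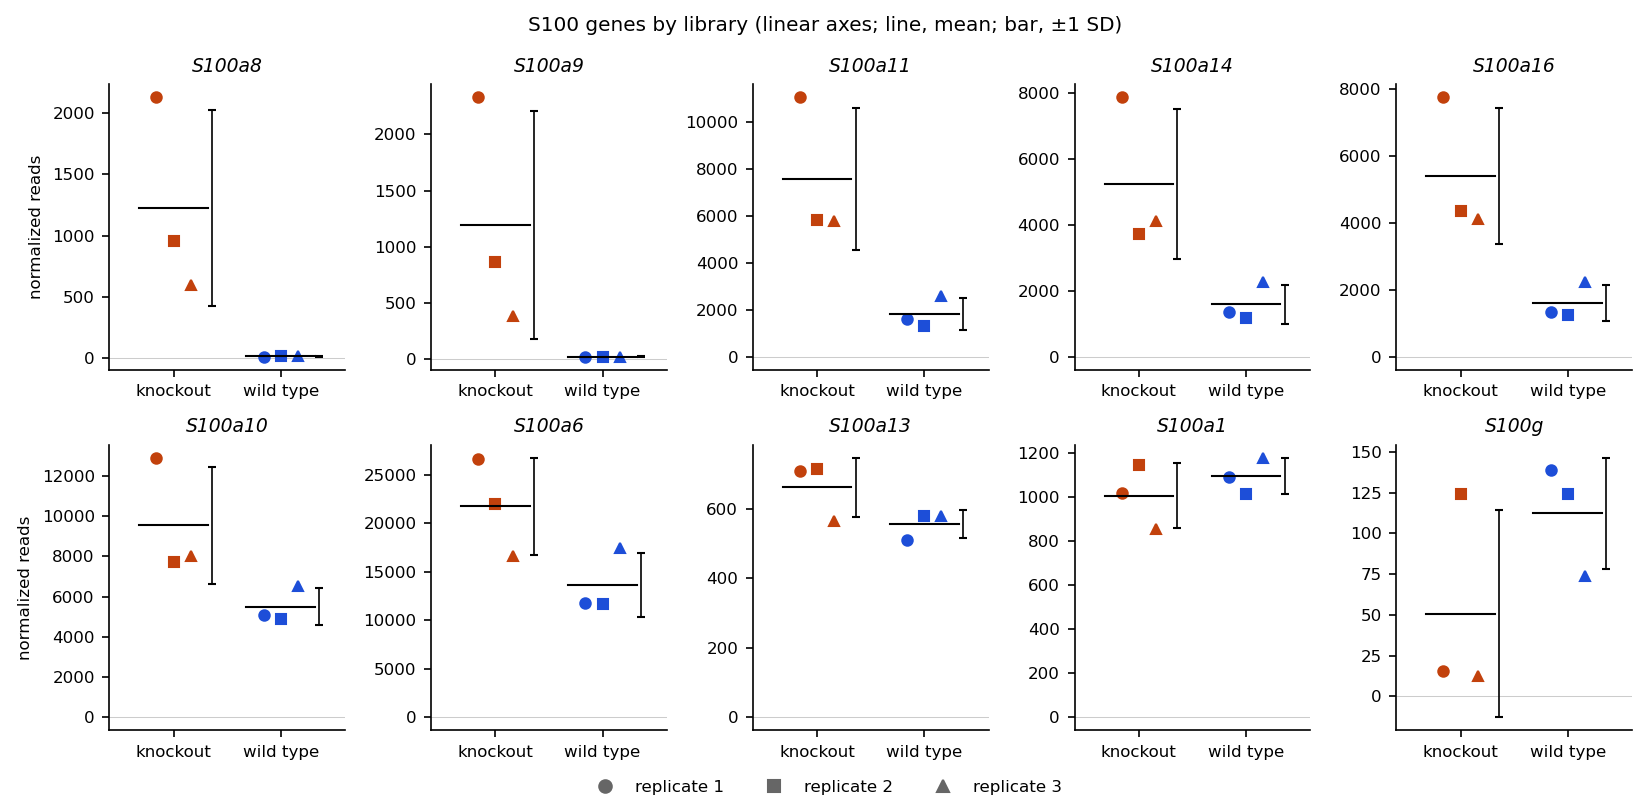
Normalized reads of the 10 S100 genes in each of the 3 knockout and 3 wild-type libraries, on linear axes; the line is the mean and the bar ±1 SD (n = 3). S100a8 lies between 599 and 2129 in knockout libraries and between 11.7 and 20.5 in wild-type libraries, whereas S100a1 and S100a13 overlap between the groups and S100g is high in knockout replicate 2.

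The 6 libraries held 10089313 to 12030844 recovered reads. Nr3c1, the targeted gene, had 145, 123 and 175 normalized reads in knockout replicates 1, 2 and 3, against 1119.8, 967 and 197 in wild type replicates 1, 2 and 3. By the level of Nr3c1, the library labelled wild type replicate 3 sits beside the knockout libraries, against its label. Values without it are therefore given as well for Nr3c1, S100a6, S100g and the raised S100 genes. The log2 change of Nr3c1 was -2.03 ± 0.60 (SE, adjusted p = 0.0372), and the two-sided exact permutation p was 0.1, the smallest that 3 against 3 libraries can give. With that library left out the change was -2.82 (adjusted p = 0.000731), and leaving out any other single library ended the call (adjusted p = 0.0631 to 0.125). Epithelial markers were high in every library, with Epcam at 18255 to 21874 in knockout and 20205 to 21731 in wild-type libraries. With bulk RNA, fewer cells of a type and less RNA per cell cannot be told apart.

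Promoter windows are shown for the genes with the largest rises, S100a8 and S100a9, for S100a11, the most raised of the annexin-binding members, and for S100g, a known target of the vitamin D receptor. Each runs from 250 bases before to 50 bases after the annotated start and is printed 5′ to 3′ on the strand of the gene, from RefSeq on GRCm38.p6. Capitals mark matches to the motifs searched.

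S100a8, chr3:90668821-90669120, plus strand: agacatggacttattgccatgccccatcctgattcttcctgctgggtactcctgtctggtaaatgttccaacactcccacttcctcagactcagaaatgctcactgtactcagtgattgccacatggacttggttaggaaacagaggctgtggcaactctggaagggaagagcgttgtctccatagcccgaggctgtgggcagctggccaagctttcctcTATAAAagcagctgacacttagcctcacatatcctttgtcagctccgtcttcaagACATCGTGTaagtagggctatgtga

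S100a9, chr3:90695672-90695971, minus strand: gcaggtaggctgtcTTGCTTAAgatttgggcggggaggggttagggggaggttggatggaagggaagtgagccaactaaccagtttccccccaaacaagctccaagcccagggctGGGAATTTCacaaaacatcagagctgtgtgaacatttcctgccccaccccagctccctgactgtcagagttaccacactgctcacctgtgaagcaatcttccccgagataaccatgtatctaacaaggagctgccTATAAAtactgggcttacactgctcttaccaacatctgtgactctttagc

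S100a11, chr3:93520246-93520545, plus strand: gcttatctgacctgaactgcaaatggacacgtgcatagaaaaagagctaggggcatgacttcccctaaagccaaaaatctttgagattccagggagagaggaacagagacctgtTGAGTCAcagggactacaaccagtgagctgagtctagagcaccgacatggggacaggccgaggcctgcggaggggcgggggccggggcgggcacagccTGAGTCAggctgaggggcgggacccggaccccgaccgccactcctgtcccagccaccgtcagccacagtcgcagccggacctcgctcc

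S100g, chrX:162964550-162964849, minus strand: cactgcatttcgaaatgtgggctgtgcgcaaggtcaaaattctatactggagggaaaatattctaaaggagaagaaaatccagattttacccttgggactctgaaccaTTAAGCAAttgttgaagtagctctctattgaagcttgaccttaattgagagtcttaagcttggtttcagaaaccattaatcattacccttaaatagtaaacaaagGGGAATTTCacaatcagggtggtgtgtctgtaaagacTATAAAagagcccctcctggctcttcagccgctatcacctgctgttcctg

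The motifs, searched on both strands, were the TATA box TATAAA, the AP-1 site TGANTCA, the C/EBP core TTGCNNAA, the STAT site TTCNNNGAA, the NF-kB site GGGNNTTTC and ACANNNTGT, the core of the palindrome that the glucocorticoid receptor binds. No printed matches overlap each other. The S100a8 window held a TATA box at -30 to -25 and the glucocorticoid receptor core at 26 to 34 past the start. The S100a9 window held a C/EBP core at -236 to -229, an NF-kB match at -135 to -127 and a TATA box beginning at the annotated start. S100a11 had 2 AP-1 matches, at -136 to -130 and -38 to -32. The S100g window held a C/EBP core at -142 to -135, an NF-kB match at -37 to -29 and a TATA box at its annotated start. Among all 32851 windows of the same length, 13.6% held the TATA box, 7.81% the AP-1 site, 10.8% the C/EBP core, 8.3% the STAT site, 4.36% the NF-kB site and 6.85% the glucocorticoid receptor core. Windows were found for 8 of the 10 genes, and S100a10 and S100a14 had none in the table used. The windows of S100a1, S100a13, S100a6 and the first of S100a16 held no match to these letters, and the second S100a16 window held 1 AP-1 match at -192 to -186. A match is a description of the letters and not evidence of binding.

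S100a8 had 2129, 953 and 599 normalized reads in knockout replicates 1, 2 and 3, against 11.7, 20.5 and 14.6 in wild type replicates 1, 2 and 3. Every knockout library was therefore far above every wild-type library. The means were 1227 ± 801 in knockout and 15.6 ± 4.52 in wild-type libraries (SD, n = 3 each), a ratio of 78.7. The log2 change was 6.04 ± 0.44 (SE, adjusted p = 0.000322), the 7th largest of all genes tested.

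S100a9, the partner of S100a8 in calprotectin, had 2330.3, 860 and 377 normalized reads in knockout replicates 1, 2 and 3, against 18.0, 18.6 and 16.4 in wild type replicates 1, 2 and 3. Here too the groups were far apart, and knockout replicate 1 was the highest library. The means were 1189 ± 1017 in knockout and 17.7 ± 1.14 in wild-type libraries (SD, n = 3 each), a ratio of 67.3. The log2 change was 5.61 ± 0.56 (SE, adjusted p = 0.000919). It was 4.94 without knockout replicate 1 and 6.25 without knockout replicate 3, with adjusted p = 0.000206 and 0.00181. With the library labelled wild type replicate 3 left out, the changes were 6.01 for S100a8 and 5.56 for S100a9 (adjusted p = 0.00134 and 0.00347). The ratio of S100a8 to S100a9 reads was 0.914, 1.11 and 1.59 in knockout replicates 1, 2 and 3 and 0.647, 1.11 and 0.889 in wild type replicates 1, 2 and 3, so its ranges overlapped between the groups.

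Markers of neutrophils and monocytes, in which calprotectin is abundant, were higher in the same libraries. Of 10 neutrophil markers listed, 9 were in the table and 5 could be tested, and all 5 rose, against 15% of all genes tested. Of these, Retnlg, Mmp9 and Ltf passed the filter only through the knockout libraries. At their wild-type levels they could enter the test only by being higher in knockout. The list summed to 1013, 777 and 513 normalized reads in knockout replicates 1, 2 and 3. In wild type replicates 1, 2 and 3 it summed to 91.3, 133 and 138. Mpo and Elane, granule enzyme genes transcribed mainly in immature neutrophils, were at 0 in every library. Retnlg, a secreted protein of mature neutrophils, had 152, 271 and 48.7 normalized reads in knockout replicates 1, 2 and 3, against 0, 2.93 and 3.64 in wild type replicates 1, 2 and 3 (adjusted p = 0.00273). Cxcr2, a chemokine receptor of neutrophils, had 346, 163 and 237 in knockout replicates 1, 2 and 3, against 71.1, 90.9 and 107 in wild type replicates 1, 2 and 3 (adjusted p = 0.00988). The marker Csf3r, the receptor of granulocyte colony-stimulating factor, had 326, 66.2 and 95.5 in knockout replicates 1, 2 and 3, against 13.8, 27.4 and 20.0 in wild type replicates 1, 2 and 3 (adjusted p = 0.0123). Cxcr2 and Csf3r were thus highest in knockout replicate 1, as S100a8 and S100a9 were, and Retnlg in knockout replicate 2. The neutrophil granule gene Ngp, below the filter, had 5.24, 98.3 and 2.86 normalized reads in knockout replicates 1, 2 and 3 and no read in wild-type libraries. The list sum ordered the knockout libraries as S100a8 and S100a9 did. Knockout replicate 2 stood above replicate 3 in that sum mainly through Retnlg and Ngp, whereas Cxcr2 and Csf3r were lower in replicate 2. Mmp9, a gelatinase, had 126, 116 and 71.6 in knockout replicates 1, 2 and 3, against 1.06, 5.87 and 6.38 in wild type replicates 1, 2 and 3 (adjusted p = 0.00158). Ltf, the gene of the granule protein lactoferrin, had 57.7, 56.9 and 57.3 in knockout replicates 1, 2 and 3, against 5.31, 5.87 and 0.911 in wild type replicates 1, 2 and 3 (adjusted p = 0.00266), nearly level within the knockout group.

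Against 15% of all genes tested called raised, 6 of 10 monocyte and macrophage markers rose and 4 did not pass the test. Their sum was 5310, 2409 and 3201 normalized reads in knockout replicates 1, 2 and 3, against 568, 949 and 1211 in wild type replicates 1, 2 and 3. Unlike S100a8 and S100a9, this sum was lowest within the knockout group in replicate 2. Ly6c2, a surface marker of inflammatory monocytes, averaged 1213 ± 508 in knockout and 35.9 ± 21.3 in wild-type libraries, and the Fc receptor gene Fcgr3 averaged 104 ± 49.3 and 8.04 ± 2.45 in these groups (SD, n = 3 each). The 4 that did not pass were Adgre1, Cd68, Lyz2 and Ccr2 (adjusted p = 0.111 to 0.216). Lyz2 averaged 764 ± 399 in knockout and 430 ± 170 in wild-type libraries, and Ccr2 12.5 ± 1.09 and 4.34 ± 4.57 (SD, n = 3 each). The part of these cells in the S100a8 and S100a9 values was not tested. T cell markers were low, with sums of 34.1 to 81.8 in knockout and 57.7 to 82.9 in wild-type libraries, and the single one that could be tested, Lck, was not called (adjusted p = 0.0679).

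The genes whose profile over the 6 libraries was nearest to S100a8, by the root mean square difference of centred log2(value + 1), were Acsbg1, an acyl-CoA synthetase (0.48), Gml (0.52), the keratin gene Krt90 (0.53) and Gml2 (0.56). Those nearest to S100a9 were Krt90 (0.44), the alarmin gene Il33 (0.53), G0s2, an inhibitor of lipolysis (0.53), and Acsbg1 (0.55). S100a8 and S100a9 themselves differed by 0.38. Il33 had 936, 157 and 169 normalized reads in knockout replicates 1, 2 and 3, against 9.55, 8.80 and 7.29 in wild type replicates 1, 2 and 3. Like both S100 genes it was highest in knockout replicate 1, which follows in part from its choice by nearness of profile. Krt90 had 127, 22.8 and 27.7 normalized reads in knockout replicates 1, 2 and 3 and no read in wild-type libraries. With 6 libraries in separate groups, this likeness rests mainly on the difference between groups.

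S100a11, known as a partner of annexin A1, had 11037, 5815 and 5793 normalized reads in knockout replicates 1, 2 and 3, against 1595, 1302 and 2593 in wild type replicates 1, 2 and 3. The lowest knockout library was above the highest wild-type library, which was the one labelled wild type replicate 3. The means were 7548 ± 3022 in knockout and 1829.9 ± 677 in wild-type libraries (SD, n = 3 each). The log2 change was 2.04 ± 0.32 (SE, adjusted p = 0.00438), and 2.32 with the library labelled wild type replicate 3 left out (adjusted p = 0.00421).

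S100a14, an epithelial member of the family, had 7859, 3718 and 4120.4 normalized reads in knockout replicates 1, 2 and 3, against 1343, 1159.7 and 2270.4 in wild type replicates 1, 2 and 3. S100a16, its widely expressed neighbour on the chromosome, had 7762, 4352 and 4127 in knockout replicates 1, 2 and 3, against 1347, 1238 and 2226 in wild type replicates 1, 2 and 3. Both genes were highest in knockout replicate 1 and showed no overlap between groups. Their log2 changes were 1.70 ± 0.33 for S100a14 (SE, adjusted p = 0.00933) and 1.74 ± 0.30 for S100a16 (SE, adjusted p = 0.0057). Of the 45 pairs among the 10 genes, S100a14 and S100a16 had the most similar profiles, with a root mean square difference of 0.09, followed by S100a11 and S100a16 with 0.16. With the library labelled wild type replicate 3 left out both were still called (adjusted p = 0.00794 for S100a14 and 0.00501 for S100a16).

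S100a10, which binds annexin A2 as a constant complex and has lost the ability to bind calcium, had 12917, 7729 and 8001 normalized reads in knockout replicates 1, 2 and 3, against 5066, 4867 and 6544 in wild type replicates 1, 2 and 3. The groups did not overlap, but the gap between knockout replicate 2 and the library labelled wild type replicate 3 was small. The means were 9549 ± 2919.8 in knockout and 5492 ± 917 in wild-type libraries (SD, n = 3 each). The log2 change was 0.77 ± 0.22 (SE, adjusted p = 0.0358). With the library labelled wild type replicate 3 left out it was 0.90 (adjusted p = 0.0381). The call ended without knockout replicate 3 (adjusted p = 0.0503), without wild type replicate 1 (adjusted p = 0.117), without wild type replicate 2 (adjusted p = 0.124) and with a prior without trend (adjusted p = 0.058).

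S100a6, known as calcyclin and found in many dividing and epithelial cells, had 26618, 21989 and 16634 normalized reads in knockout replicates 1, 2 and 3, against 11727, 11627 and 17442 in wild type replicates 1, 2 and 3. Knockout replicate 3 fell below the library labelled wild type replicate 3, so the groups overlapped. The means were 21747 ± 4996 in knockout and 13599 ± 3329 in wild-type libraries (SD, n = 3 each). The log2 change was 0.68 ± 0.24 (SE, adjusted p = 0.0643). It passed the threshold with the library labelled wild type replicate 3 left out (0.87, adjusted p = 0.0347), without knockout replicate 3 (0.86, adjusted p = 0.046) and with DESeq2 (adjusted p = 0.0161).

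S100a13, which takes part in the release of proteins that lack a signal peptide, had 709, 715 and 564 normalized reads in knockout replicates 1, 2 and 3, against 512, 579 and 580.1 in wild type replicates 1, 2 and 3. The groups overlapped. Its log2 change was 0.24 (95% interval -0.06 to 0.55, adjusted p = 0.182). S100a1, best known from heart muscle, where it acts on calcium release, had 1021, 1146 and 855 normalized reads in knockout replicates 1, 2 and 3, against 1092, 1015 and 1179 in wild type replicates 1, 2 and 3. These too overlapped, and the log2 change was -0.13 (95% interval -0.44 to 0.18, adjusted p = 0.484). The intervals, which are not adjusted for the number of genes, exclude a 2-fold change of either gene in either direction. S100a1 and S100a13 run in opposite directions and overlap by 98 bases at their starts, and reads there cannot be told apart in these non-stranded libraries.

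**Figure D2:**
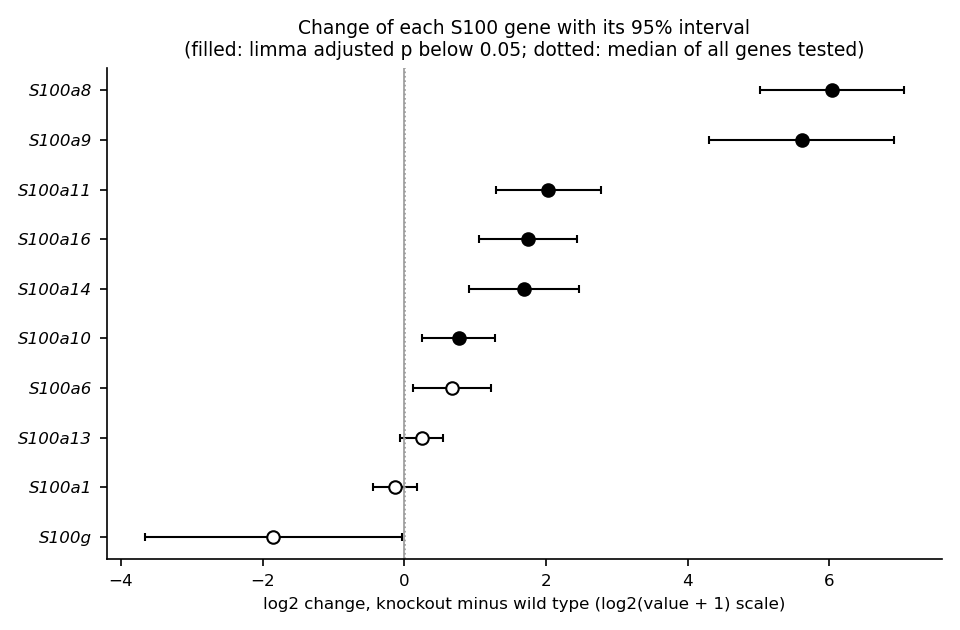
Log2 change, knockout minus wild type, of each S100 gene with its unadjusted 95% interval from limma; filled points have an adjusted p below 0.05 and the dotted line is the median of all genes tested. The changes run from 6.04 for S100a8 to -1.85 for S100g, whose interval of -3.67 to -0.03 is the widest of the 10.

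Per kilobase of annotated exon, S100a6 had the highest level of the 10 in both groups, with 26881 ± 6176 normalized reads per kilobase in knockout and 16809 ± 4115 in wild-type libraries (SD, n = 3 each). In wild-type libraries it was followed by S100a10 (6848), S100a11 (3581), S100a1 (1579), S100a14 (1459.6), S100a16 (1114), S100a13 (779), S100g (234), S100a9 (33.9) and S100a8 (32.1). In knockout libraries the order was S100a6, S100a11 (14772), S100a10 (11907), S100a14 (4800.3), S100a16 (3762), S100a8 (2524), S100a9 (2278), S100a1 (1452), S100a13 (927) and S100g (106). S100a8 and S100a9, the lowest in wild-type libraries, thus stood above S100a1 and S100a13 on average in the knockout libraries, although their SD in that group covers the difference. Taking ±1 SD as the spread, S100a1, S100a14 and S100a16 overlapped in wild-type libraries, as did S100a16 and S100a13, and S100a9 and S100a8. In knockout libraries the neighbours S100a11 and S100a10, S100a14 and S100a16, S100a16 and S100a8, S100a8 and S100a9, and S100a9 and S100a1 overlapped in the same sense. Summed over the 10 genes, normalized reads were 72398, 47401 and 41083.5 in knockout replicates 1, 2 and 3, against 22850.4, 21949.7 and 32939.6 in wild type replicates 1, 2 and 3. The groups did not overlap, and the sums made up 0.45% ± 0.12 of all normalized reads in knockout and 0.237% ± 0.055 in wild-type libraries (SD, n = 3 each, two-sided exact permutation p = 0.1, the smallest possible). S100a6 alone gave 36.8% to 46.4% of the sum in knockout and 51.3% to 53% in wild-type libraries.

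S100g, the calcium carrier of absorptive cells, had 15.7, 124 and 12.4 normalized reads in knockout replicates 1, 2 and 3, against 139, 124 and 73.8 in wild type replicates 1, 2 and 3. Knockout replicates 1 and 3 lay far below every wild-type library, while knockout replicate 2 lay within the wild-type range. The log2 change was -1.85 ± 0.78 (SE, adjusted p = 0.108), -2.87 ± 0.34 (SE, adjusted p = 0.00245) without knockout replicate 2, and -2.12 (adjusted p = 0.127) with the library labelled wild type replicate 3 left out. It was smaller without knockout replicate 3 (-1.26, adjusted p = 0.276) and on the recovered reads with edgeR (-1.16, adjusted p = 0.275) and DESeq2 (-1.15, adjusted p = 0.406). No S100 gene of the 10 was called lowered by limma, edgeR or DESeq2 in all 6 libraries, and 1, S100g, had an unadjusted limma p under 0.05 with a negative change. Its call thus turns on a single library.

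Other genes of epithelial calcium uptake fell in knockout cells. Of the 7 listed, 4 passed the filter and all 4 fell. Trpv6 passed only through the wild-type libraries, so at its knockout level it could enter the test only by being higher in wild type. Trpv5, Calb1 and Cyp24a1 had at most 1 read in any library and were not tested. Among all genes tested 15.4% were called lowered. Slc8a1, a sodium-calcium exchanger, averaged 79.2 ± 18.9 in knockout and 957 ± 209 in wild-type libraries (SD, n = 3 each, adjusted p = 0.000225). Atp2b1, the pump that exports calcium across the plasma membrane, averaged 1564 ± 231 in knockout and 2823 ± 94.1 in wild-type libraries (SD, n = 3 each, adjusted p = 0.00358). Vdr, the vitamin D receptor gene, had 849, 2536 and 1764 in knockout replicates 1, 2 and 3, against 4197, 4753 and 3779 in wild type replicates 1, 2 and 3 (adjusted p = 0.0202). Trpv6, the apical calcium channel gene, had 0, 7.24 and 3.82 in knockout replicates 1, 2 and 3, against 23.4, 57.7 and 61.9 in wild type replicates 1, 2 and 3 (log2 change -3.71, adjusted p = 0.0121). The change of Trpv6 was -2.83 without knockout replicate 1, -4.35 without knockout replicate 2 and -2.59 with a pseudocount of 5 (adjusted p = 0.00714, 0.00818 and 0.00574). Within the knockout group Vdr, Trpv6, Atp2b1 and Slc8a1 were all highest in knockout replicate 2, the library in which S100g was high. For 2 of them the lead over knockout replicate 3 was within counting error. Slc8a1 had 93.1 against 86.9 normalized reads, from 90 and 91 reads, and Trpv6 had 7 against 4 reads. The count of 4 was 2 without wild type replicate 2, when Trpv6 (adjusted p = 0.0526) and Vdr (adjusted p = 0.0732) were no longer called, and 3 without wild type replicate 1, when Vdr was not (adjusted p = 0.0668).

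Annexins are the membrane-binding partners of several S100 proteins. Of 12 tested genes in the annexin and Ahnak list, 6 rose, against 15% of all genes tested, and 6 did not pass the test. The list's median log2 change was 0.77, against 0.01 over all genes tested. The clearest rises were in Anxa5 (1366 ± 390 in knockout and 364 ± 63.2 in wild-type libraries), Anxa8 (5087 ± 2036 and 430.1 ± 254), Anxa4 (6179 ± 624 and 3499 ± 184) and Anxa3 (3704 ± 581 and 1196 ± 506), all as mean ± SD with n = 3 each and adjusted p of 0.00134 to 0.00453. The partner genes Anxa1 and Anxa2 also rose, and were chosen for their known binding after their values had been seen, as were Anxa11 and Ahnak. Anxa2, the partner of S100a10, had 37346, 23257 and 23650.2 normalized reads in knockout replicates 1, 2 and 3, against 9263, 8497 and 12594 in wild type replicates 1, 2 and 3 (log2 change 1.46, adjusted p = 0.00506). Anxa1, the partner of S100a11, had 15647, 7532 and 8276 in knockout replicates 1, 2 and 3, against 2636, 2399.6 and 4748 in wild type replicates 1, 2 and 3 (log2 change 1.67, adjusted p = 0.0103). In each pair the S100 gene and the annexin gene were highest in knockout replicate 1 and, within the wild type, in the library labelled wild type replicate 3. Anxa3, Anxa5, Anxa8, S100a14 and S100a16 were highest in the same libraries, so this order is not particular to the pairs. Anxa11, whose product binds S100a6, was 3763, 4098 and 3225 in knockout replicates 1, 2 and 3, against 3279.7, 3532 and 3967 in wild type replicates 1, 2 and 3 (adjusted p = 0.84). Ahnak, a scaffold bound by the complex of S100a10 and annexin A2, did not pass the test (log2 change 0.50, adjusted p = 0.168).

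**Figure D3:**
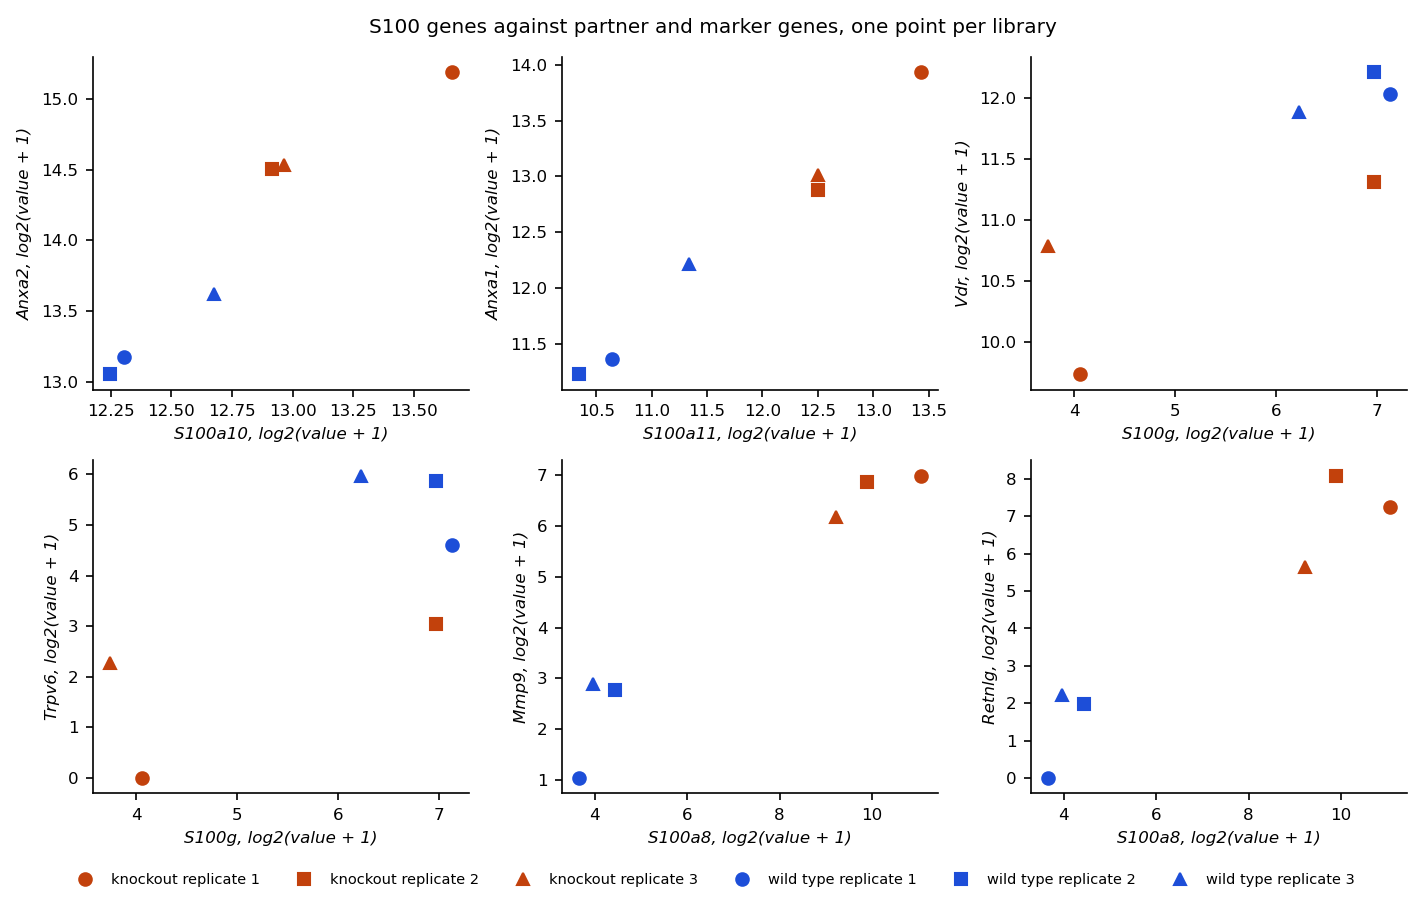
Log2(value + 1) of S100 genes against partner or marker genes, 1 point per library and 6 libraries per panel, with knockout in orange and wild type in blue. S100a10 and Anxa2, and S100a11 and Anxa1, order the libraries alike at their ends, with knockout replicate 1 highest and wild type replicate 2 lowest, while S100g and Vdr are both highest within the knockout group in replicate 2. Anxa3, Anxa5, S100a14 and S100a16, not drawn, have the same highest and lowest libraries as the annexin pairs.

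Of 5 tested receptors of S100 proteins 3 rose, against 15% of all genes tested, and 2 did not pass the test. Tlr4, the lipopolysaccharide receptor that S100A8 and S100A9 can activate, averaged 466 ± 79.3 in knockout and 199 ± 72 in wild-type libraries (SD, n = 3 each, adjusted p = 0.0099). Emb, a receptor of S100A8 described in the mouse, averaged 44 ± 15.6 in knockout and 7.90 ± 5.32 in wild-type libraries (SD, n = 3 each, adjusted p = 0.0104). It passed the filter only with the knockout libraries. Nptn averaged 1437 ± 103 in knockout and 1105.5 ± 35.1 in wild-type libraries (SD, n = 3 each, adjusted p = 0.026). That call ended under 6 of 15 alternatives, among them leaving out the library labelled wild type replicate 3 (adjusted p = 0.072). Bsg had a log2 change of -0.37 (adjusted p = 0.12). Ager, the gene of the receptor RAGE, was below the filter, with 1.05 to 4.77 normalized reads in knockout and 4.55 to 6.84 in wild-type libraries.

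Of 7 further S100 genes, S100a4, a member common in fibroblasts and leukocytes, was the single one to pass the filter. It had 39.8, 22.8 and 31.5 normalized reads in knockout replicates 1, 2 and 3, against 12.7, 24.4 and 20.9 in wild type replicates 1, 2 and 3, and the groups overlapped (log2 change 0.68 ± 0.34, SE, adjusted p = 0.164). S100a3 had 10 reads in the 3 knockout libraries together and 1 read in the 3 wild-type libraries, a ratio of 9.53 after scaling to the library totals with an exact 95% binomial interval of 1.36 to 413, which covers counting error only. S100z had 11 reads in knockout and 9 in wild-type libraries, S100a7a 4 and 4, and S100b 1 and 2. S100a5 and S100a7l2 had no read in any library, where a floor of 3 reads corresponds to 2.73 to 3.18 normalized reads per library. S100a2, noticed in the table afterwards, had 1 read in knockout and 2 in wild-type libraries. Of the S100-fused genes of the cornified envelope 6 of 7 were in the table and only Tchh, the trichohyalin gene, could be tested, with 16.6 ± 3.66 normalized reads in knockout and 5.02 ± 4.02 in wild-type libraries (SD, n = 3 each, adjusted p = 0.0566).

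Of the 10 genes, 9 lie on chromosome 3 and S100g on chromosome X. On GRCm38, S100a1 (90511034 to 90514330), S100a13, S100a14, S100a16, S100a6, S100a8 (90669071 to 90670034) and S100a9 (90692630 to 90695721) fall within 185 kb, and S100a11 (93520496 to 93526288) and S100a10 (93555117 to 93564645) lie 2825 kb further on, past the genes of the cornified envelope. Changes were uneven within this stretch. S100a14 and S100a16, about 16 and 26 kb from the start of S100a1, rose, whereas S100a1 and S100a13 beside them were not called, and S100a8 and S100a9 at the other end rose most. The 7 tested genes in the 250 kb before S100a1 had log2 changes of -0.38 to 0.39 and adjusted p of 0.0573 or more. Between S100a9 and S100a11, 7 of 50 protein-coding genes other than S100a7l2 could be tested and 4 of them rose, all of the small proline-rich Sprr2 family, named after their values were seen: Sprr2b, Sprr2h, Sprr2i and Sprr2k. Sprr2i and Sprr2k passed the filter only through the knockout libraries, and 15% of all genes tested were called raised. Sprr2 genes are close paralogs whose reads the counting may have shared or dropped.

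**Figure D4:**
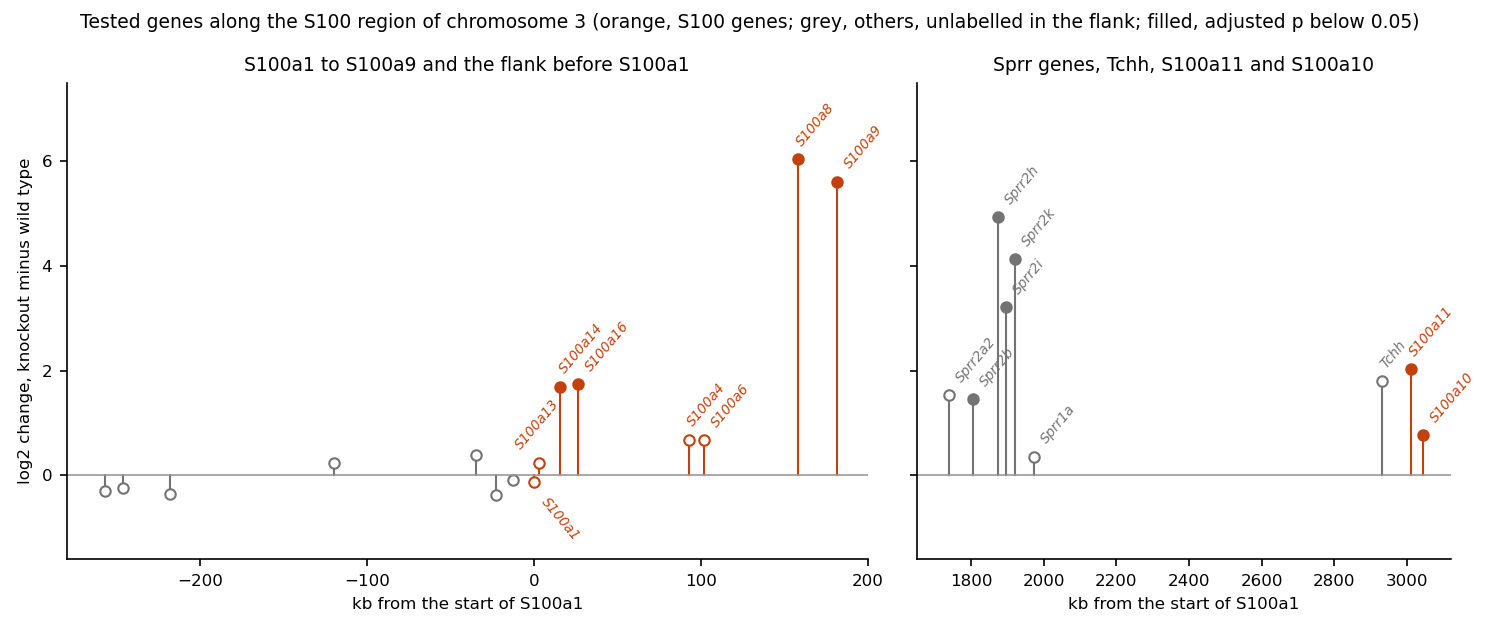
Log2 change, knockout minus wild type, of the tested protein-coding genes along the S100 region of chromosome 3, by distance in kb from the start of S100a1; orange marks S100 genes and filled points have an adjusted p below 0.05. The grey genes before S100a1 stay within -0.38 to 0.39, while S100a14 and S100a16 stand at 1.70 and 1.74 and S100a8 and S100a9 at 6.04 and 5.61.

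All 6 raised S100 genes were highest in knockout replicate 1, and in 4 of the 6 the library labelled wild type replicate 3 was the highest of the wild type. Marker levels of other cells also differed between the libraries. The sums over the full fibroblast and endothelial list and the full stratified epithelium list overlapped between the groups. Fibroblast and endothelial markers summed to 2396, 486 and 957 normalized reads in knockout replicates 1, 2 and 3, against 183, 312 and 619 in wild type replicates 1, 2 and 3, with 2 of 6 tested markers called raised. Those called were Dcn and Vim. Pecam1, the single endothelial marker that could be tested, went the other way without overlap and was not called (adjusted p = 0.055). It averaged 10.3 ± 4.34 in knockout and 22.6 ± 4.59 in wild-type libraries (SD, n = 3 each). Stratified epithelium markers summed to 4119, 1527 and 3115 in knockout replicates 1, 2 and 3, against 1119.8, 2039 and 2589 in wild type replicates 1, 2 and 3, with 2 of 5 tested called raised. Most of that sum was Sprr1a, which was not called (adjusted p = 0.518). Without Sprr1a, left out after the values were seen, the sums were 969, 251.4 and 271 in knockout replicates 1, 2 and 3, against 37.1, 46.9 and 84.7 in wild type replicates 1, 2 and 3, with no overlap between the groups. The 2 called raised were Krt13 and Krt6a, keratins of stratified epithelium, with Krt13 at 297, 114 and 97.4 in knockout replicates 1, 2 and 3, against 4.25, 0.978 and 0.911 in wild type replicates 1, 2 and 3. Both passed the filter only with the knockout libraries. Krt14 did not overlap between the groups and Krt16 did, and neither was called (adjusted p = 0.0749 and 0.287). Sprr3 was at 0 in every library, and Trp63, the regulator of basal cells in stratified epithelium, had at most 2.10 normalized reads. Of 8 epithelial markers 2, Krt20 and Vil1 of mature surface cells, rose and 6 did not pass the test. For these counts, the share called raised among all genes tested was 15%. The part of these markers in the S100 values was not tested. Leaving out knockout replicate 1, the same number of S100 genes, 6, was called raised, with S100a11 at 1.73, S100a14 at 1.36 and S100a16 at 1.45 (adjusted p = 0.00399, 0.00941 and 0.00527).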

How the data were processed

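Non-stranded TruSeq mRNA libraries of 3 knockout and 3 wild-type samples were analysed. The deposited signal values are gene counts divided by a size factor per library, and the submitters' processing notes name FastQC, TopHat, DESeq2 and mm10. For the read counter, its annotation and the tool versions, details are not given in the sources used. In the deposited values, 100% came out as whole reads within 0.001 once the size factor was undone, and 23666 of 23725 Entrez numbers matched a symbol. Genes with a value of 10 or more in 3 or more libraries (12837) were tested with limma 3.58.1 (R 4.3.3), with a trended prior, on log2(value + 1). edgeR 4.0.16 and DESeq2 1.42.0 were run on the recovered reads, which are an alternative and not the main test, and called 3893 and 4164 genes, against 3910 by limma. Other alternatives were pseudocounts of 0.5 and 5, no filter, a filter at 50, TMM scaling, quantile normalization, a prior without trend and leaving out each library. Replicate numbers follow accession order and pair nothing. Within each group, every pair of libraries differed by more than counting noise (chi-square per degree of freedom 14.2 to 53.9), so each was counted as 1 sample; this does not show that they came from separate animals. Depth was 10089313 to 12030844 recovered reads per library, so genes under about 10 reads have wide counting error. Lengths are GENCODE M21 exon unions, and promoter windows are from RefSeq on GRCm38.p6. The labels give no batch or sex.

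The members and gene lists were chosen with earlier results of these data known. Named were Nr3c1, the S100 genes, up to 4 genes of each other list with the smallest adjusted p, defining markers at 0, and the 4 genes nearest to S100a8 and to S100a9. Predicted genes and pseudogenes were passed over. Anxa1, Anxa2, Anxa11, Ahnak, Ager, Ngp, Csf3r, Adgre1, Cd68, Lyz2, Ccr2, Sprr1a, Trp63, Tchh, S100a2, Epcam and the Sprr2 genes were named after their values were seen.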

Additional observations from a re-analysis of the deposited data

How the results depend on the processing

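S100a8, S100a9, S100a11, S100a14 and S100a16 were called raised under all 15 alternatives. The count of raised S100 genes was 6 and ranged from 5 to 7, and the lowered count was 0, ranging from 0 to 1 when single libraries were left out (1 without knockout replicate 2, S100g). The count of all genes called, 3910, ranged from 1923 to 3607 with single libraries left out, and the lowest counts were 1923 when wild type replicate 1 was removed and 1960 when wild type replicate 2 was. The log2 change of Nr3c1 ranged from -2.82 to -1.57 with single libraries left out, and was -2.03 with a prior without trend (adjusted p = 0.0631 by limma). The log2 change of S100g ran from -2.87 without knockout replicate 2 to -1.15 with DESeq2. The mean sum of stratified epithelium markers in knockout libraries was 2920.4, and 497 without Sprr1a, an alternative chosen after seeing the data. The cause of these shifts was not tested. No scaling moved the median of all genes by over 0.1 on the log2 scale. No paired analysis was possible because the labels give no replicate numbers. Genes near 0, such as Trpv6 in knockout cells and most of the further S100 genes, are limited by depth.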
